A study of Mus musculus with 12 samples.

Results

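Integrins are adhesion receptors on the cell surface, each made of 1 alpha and 1 beta chain, and 10 mouse genes for such chains were followed here through 12 RNA libraries of microglia, the resident macrophages of the brain. The genes are Itgal, Itgam, Itga4, Itga5, Itga6 and Itgav, which encode alpha chains, and Itgb1, Itgb2, Itgb5 and Itgb7, which encode beta chains. They were chosen by name, with earlier results of these data known. All rows of the deposited transcript table with these symbols were taken. This gave 53 transcripts, 41 of them above 0 in some library, out of 115879 transcripts of 46262 genes. The cells were wild-type primary murine microglia from mixed glial cultures of forebrain or cerebellum, kept for 24 hours with one of 2 cytokines, CSF-1 (20 ng/ml) or else IL-34 (100 ng/ml). Both cytokines signal through the receptor encoded by Csf1r. The deposited table names its cells neonatal, and the labels give no age. Each region was combined with each ligand, which gave 4 groups of 3 libraries from independent cultures. No group lacked a ligand, and the doses of the ligands differed, so a ligand difference cannot be told apart from a dose difference. The sequencing depth behind each value is unknown, because the table gives TPM, in which a transcript's reads are divided by its length and then scaled to the library's total.

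The pair of chains sets which ligand an integrin binds. The beta chain has the short cytoplasmic tail to which talin and kindlin bind when the receptor is switched on. The beta2 chain, Itgb2, is restricted to leukocytes and pairs with Itgal to form LFA-1, which binds intercellular adhesion molecules, and with Itgam to form the complement receptor Mac-1, whose alpha chain, CD11b, is a standard surface marker of microglia. The beta1 chain, Itgb1, pairs with Itga5 to bind fibronectin, with Itga6 to bind laminin and with Itga4 to bind VCAM-1 and fibronectin. The alpha chain Itgav binds proteins with an RGD motif, such as vitronectin and the latent form of TGF-beta, together with Itgb5, Itgb1 or other beta chains. Itgb7 pairs with Itga4 on gut-homing lymphocytes.

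Among microglial marker genes, Csf1r, which other macrophages share, was at 1130 to 1330 TPM. P2ry12 at 7.1 to 11.7 TPM and Tmem119 at 7.15 to 20.4 TPM were low. The summed level of 5 lymphocyte markers was at most 0.618 TPM, and that of 5 monocyte and neutrophil markers at most 0.901 TPM. The sums of astrocyte, oligodendrocyte-lineage and mesenchymal and vascular markers were 9.31 to 19 TPM, 37.6 to 76.1 TPM (nearly all of it Mbp) and 3.81 to 13 TPM. The labels' protocol for extraction names beads against CD11b, the product of Itgam, but for human tissue. Whether the cultured mouse cells also passed such beads is not stated there, and if they did, Itgam was used to choose the cells. The cerebellar libraries with IL-34 stood apart in short RNA: transcripts under 600 nt held 2.58, 3.31 and 0.947% of their TPM and 0.0269 to 0.555% in each of the 9 other libraries. In bulk RNA, fewer cells of a type and less RNA per cell cannot be told apart.

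On the TPM scale, which divides by transcript length, the 10 chains fell into 3 levels. Itgb2 was the most abundant, at 712 to 865 TPM, above every value of every other chain. Itgb1 (402 to 532 TPM) and Itgb5 (382 to 445 TPM) came next, and their ranges overlapped. Itgam (256 to 392 TPM), Itga6 (239 to 379 TPM), Itgav (235 to 411 TPM) and Itga5 (213 to 282 TPM) followed, and each range from Itgb5 on overlapped that of its neighbour in this order. The alpha chains Itgal at 12.6 to 40.6 TPM and Itga4 at 9.76 to 15.2 TPM formed the second level, and their ranges overlapped only through the cerebellar values of Itgal. Itgb7 was lowest at 0.621 to 1.29 TPM and reached 1 TPM in 6 of 12 libraries. All 10 passed the filter on low values, which asked for 1 TPM in 3 libraries and left 12419 genes to be tested.

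**Figure D1:**
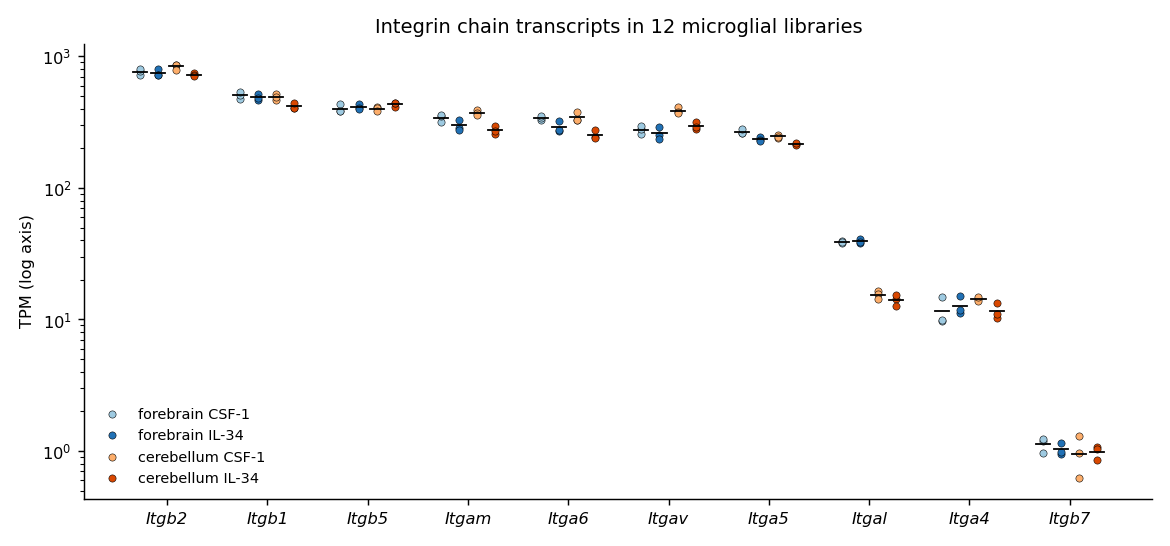
TPM of the 10 integrin chain genes (log axis) in each of 12 libraries, in order of their mean, with points for libraries, bars for group means and colours for the 4 groups (n = 3 each). Itgal is the chain whose points separate by region, near 39 TPM in forebrain and near 15 TPM in cerebellum.

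Some of the genes share a chromosome in the GRCm38 genome. Itgal (ENSMUSG00000030830, chr7:127296260-127335138) and Itgam (ENSMUSG00000030786, chr7:128062640-128118491) are both on the plus strand of chromosome 7. Itga6 (ENSMUSG00000027111, chr2:71745616-71858416), Itga4 (ENSMUSG00000027009, chr2:79255426-79333123) and Itgav (ENSMUSG00000027087, chr2:83724397-83806916) are on chromosome 2, and Itgb7 (ENSMUSG00000001281, chr15:102215995-102231944) and Itga5 (ENSMUSG00000000555, chr15:103344286-103366763) on the minus strand of chromosome 15. Itgb2 (ENSMUSG00000000290) is at chr10:77530252-77565708, Itgb1 (ENSMUSG00000025809) at chr8:128685654-128733200 and Itgb5 (ENSMUSG00000022817) at chr16:33829665-33949338, all on the plus strand.

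The comparison of brain regions asks whether microglia from the cerebellum and the forebrain carry different integrins after the same culture. Itgal was lower in cerebellar than in forebrain microglia under both ligands, at 14.7 ± 1.37 TPM (SD, n = 6) against 39.2 ± 0.915 TPM (SD, n = 6), a 2.66-fold difference. Itgav was higher in cerebellar microglia, and Itgb1 and Itga5 were slightly lower. Averaged over the ligands, 1 member was higher and 3 were lower among 10, with limma and Benjamini-Hochberg adjustment over all genes at 0.05. Of all genes tested 20.1% were called, 9.58% higher and 10.6% lower. The other 6 members, Itgam, Itgb2, Itgb5, Itgb7, Itga4 and Itga6, did not pass. The members' median log2 fold change was -0.04, beside 0.01 for all genes.

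Itgal was 38.4, 39.8 and 39.1 TPM in forebrain with CSF-1 and 40.6, 38.2 and 38.8 TPM in forebrain with IL-34. In cerebellum it was 16.5, 15.5 and 14.2 TPM with CSF-1 and 14.2, 12.6 and 15.4 TPM with IL-34. Every cerebellar library was below every forebrain library, which held for 7.05% of all genes in one direction or the other. Within each region the values of the different ligands overlapped. The log2 fold change of cerebellum against forebrain was -1.29 (SE 0.08, adjusted p = 9.69e-06) under CSF-1, -1.42 (SE 0.08, adjusted p = 1.74e-06) under IL-34 and -1.36 (SE 0.06, adjusted p = 1.03e-07) as the mean of both. Of the genes tested, 0.322% had a mean log2 fold change this low or lower. The regional calls of Itgal were kept in each alternative setting and in each fit that left out 1 library, with log2 fold changes between -1.49 (IL-34, without 1 library) and -1.11 (CSF-1, an alternative setting). The ligand made no difference of that size: IL-34 against CSF-1 gave 0.00 in forebrain (95% confidence interval -0.17 to 0.18) and -0.13 in cerebellum (-0.30 to 0.05).

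Genes of other cells moved with region too, beside Itgal. Markers of lymphocytes, which carry LFA-1, were near 0: the 5 of them summed to at most 0.079 TPM in the forebrain libraries, where Itgal was high, and Ncr1 was listed at 0 in every library. Ccr2, a marker of monocytes, was at most 0.867 TPM, and S100a8, S100a9 and Elane were listed at 0 throughout. Among 4 markers of border macrophages, Mrc1 was 33.8 to 40.7 TPM in forebrain and 24 to 30.5 TPM in cerebellum. Cd163 was 0.355 to 0.673 TPM in forebrain and 0 to 0.263 TPM in cerebellum, and Lyve1 was at most 0.748 TPM. The short Pf4 had higher means in cerebellum and varied widely between libraries. It was 0 to 45 TPM in forebrain, 0 to 85 TPM in cerebellum with CSF-1 and 77.9 to 131 TPM in cerebellum with IL-34. The summed astrocyte markers were 16.4 to 19 TPM in forebrain and 9.31 to 12.4 TPM in cerebellum, and the summed oligodendrocyte-lineage markers 37.6 to 44 and 59.7 to 76.1 TPM. The summed mesenchymal and vascular markers were 7.83 to 13 TPM in forebrain and 3.81 to 6.13 TPM in cerebellum. That difference lay mostly in Acta2, at 5.63 to 9.48 TPM in forebrain and 1.53 to 2.79 TPM in cerebellum. Col1a2, at most 0.981 TPM, had higher means in cerebellum, and Col1a1, Col3a1, Pdgfrb and Pecam1 overlapped between regions. Of the microglial markers, Tmem119 was 7.15 to 9.91 TPM in forebrain and 17.7 to 20.4 TPM in cerebellum, and P2ry12 was 9.93 to 11.7 TPM and 7.1 to 9.81 TPM. Neither pair of ranges overlapped. The part of these cells in the regional differences was not tested.

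Itgav was 256, 280 and 295 TPM in forebrain with CSF-1, 292, 254 and 235 TPM in forebrain with IL-34, 411, 380 and 371 TPM in cerebellum with CSF-1, and 315, 280 and 289 TPM in cerebellum with IL-34. The cerebellar libraries with CSF-1 stood above all the others. Cerebellum against forebrain gave a log2 fold change of 0.48 (SE 0.08, adjusted p = 0.00618) under CSF-1 and 0.18 (SE 0.08, adjusted p = 0.169) under IL-34, where the libraries of the regions overlapped, and 0.33 (SE 0.06, adjusted p = 0.00291) as the mean. The call under CSF-1 and the mean call were kept in each alternative setting and each fit without 1 library. The difference under IL-34 passed in 2 settings, median-of-ratios scaling (0.21, adjusted p = 0.0496) and removal of the length trend (0.15, adjusted p = 0.0374). Under CSF-1, 1 member was higher (Itgav) and 1 lower (Itgal), against 6.71% of all genes called, 3.29% higher and 3.42% lower.

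Itgb1 and Itga5 differed little between regions. Itgb1 was 477, 510 and 532 TPM in forebrain with CSF-1, 521, 463 and 483 TPM in forebrain with IL-34, 514, 470 and 490 TPM in cerebellum with CSF-1, and 402, 405 and 442 TPM in cerebellum with IL-34. The last group was below the other 3 in every library. Under IL-34 cerebellum against forebrain gave -0.23 (SE 0.06, adjusted p = 0.0321), under CSF-1 -0.04 (SE 0.06, adjusted p = 0.735) and as the mean -0.14 (SE 0.04, adjusted p = 0.0488). The mean call was lost in 8 of 12 fits without 1 library, at adjusted p = 0.079 to 0.115. It was kept without cerebellum CSF-1 replicate 1, cerebellum IL-34 replicate 3, forebrain CSF-1 replicate 1 or forebrain IL-34 replicate 2. The call under IL-34 was lost without cerebellum IL-34 replicate 1 or 2 (0.103 and 0.111) or forebrain IL-34 replicate 1 or 3 (0.0992 and 0.0715). Itga5, the fibronectin receptor chain, was lower in cerebellum by similar amounts under both ligands (-0.12 each, adjusted p = 0.149 and 0.104), and only the mean passed (-0.12, SE 0.03, adjusted p = 0.0235). That call was lost without cerebellum CSF-1 replicate 1 or 3, cerebellum IL-34 replicate 2 or forebrain CSF-1 replicate 3, at adjusted p = 0.0505 to 0.0549. Under IL-34, 2 members were lower (Itgal and Itgb1) and 0 higher, against 13.5% of all genes called and 8.22% called lower, and 5 members had an unadjusted p under 0.05, beside 29.4% of all genes. A fit without cerebellum IL-34 replicates 1 and 2, the libraries richest in short transcripts, kept only 1 library in that group, so its calls are not given.

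**Figure D2:**
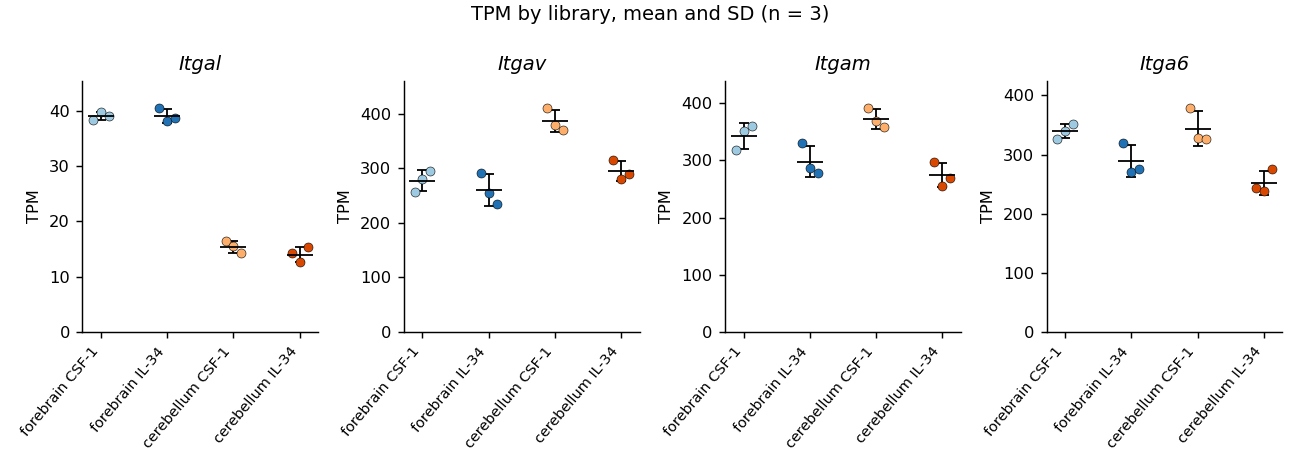
TPM of Itgal, Itgav, Itgam and Itga6 by library (points) with mean and SD (bars, n = 3) in the 4 groups, on axes that start at 0. Itgal separates by region, Itgav is highest in cerebellum with CSF-1, and Itgam and Itga6 are lowest in cerebellum with IL-34.

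The balance of partner chains follows from these values. Among the alpha chains that can pair with Itgb2, namely Itgal, Itgam, Itgax and Itgad, Itgal made up 10.2 ± 0.494% of the summed TPM under CSF-1 and 11.6 ± 0.636% under IL-34 in forebrain (SD, n = 3 each). In cerebellum it made up 3.95 ± 0.115% and 4.84 ± 0.465%. The forebrain and cerebellar libraries did not overlap in this share. Itgam made up 87.3 to 95.8%, and Itgax and Itgad together less than 1% in every library. The ratio of Itgam to Itgal was 8.76 ± 0.471 and 7.6 ± 0.48 in the forebrain groups and 24.2 ± 0.769 and 19.6 ± 1.85 in the cerebellar groups, with CSF-1 first. Itgb2 exceeded the sum of its 4 alpha partners in every library, by a ratio of 1.99 ± 0.0304 and 2.2 ± 0.0611 in forebrain and 2.15 ± 0.0551 and 2.51 ± 0.148 in cerebellum. Itgb2 itself did not pass between regions (0.05, SE 0.04, adjusted p = 0.434 for the mean).

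Itgav and Itgb5 form the vitronectin receptor alphavbeta5. The ratio of their TPM was 0.971 ± 0.0313 in cerebellum with CSF-1 and lower in the other groups, at 0.685 ± 0.0731 in cerebellum with IL-34, 0.695 ± 0.061 in forebrain with CSF-1 and 0.629 ± 0.038 in forebrain with IL-34. The libraries of cerebellum with CSF-1 lay between 0.942 and 1, above the highest of the others, 0.769. Itgb5 relative to Itgb1, the other main partner of Itgav, was highest in cerebellum with IL-34, at 1.04 ± 0.0434, against 0.813 ± 0.0406 with CSF-1 there, and 0.79 ± 0.0609 and 0.845 ± 0.0277 with CSF-1 and IL-34 in forebrain. Ratios of RNA do not give the amounts of assembled receptor, and they were not tested beyond these ranges.

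**Figure D3:**
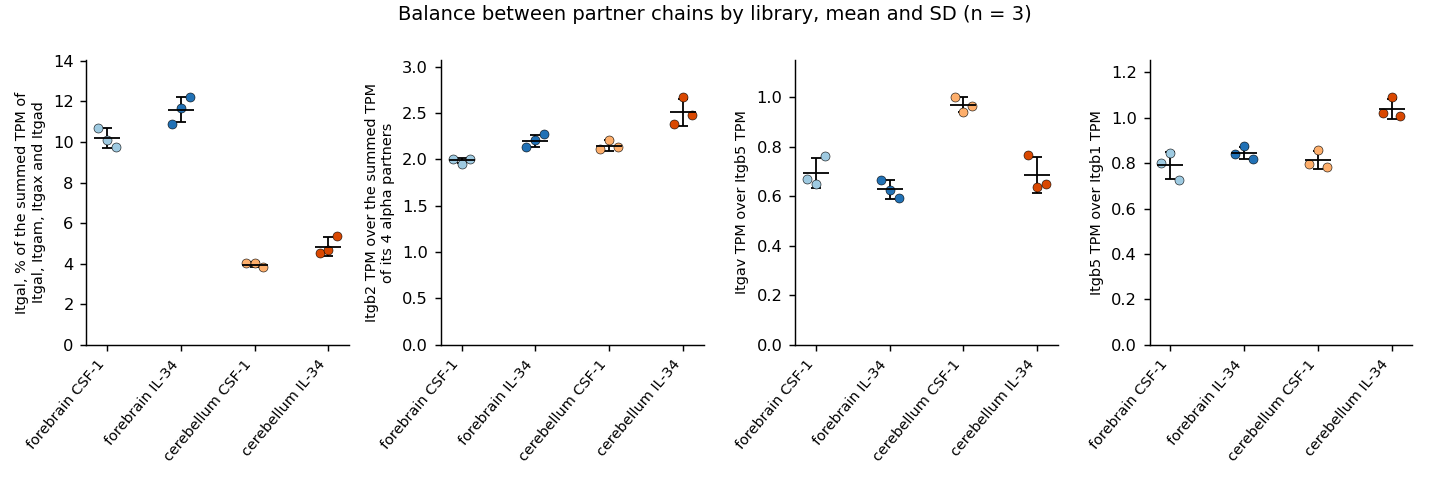
Ratios between partner chains by library (points) with mean and SD (bars, n = 3): the share of Itgal among the alpha partners of Itgb2 (percent), Itgb2 over those partners, Itgav over Itgb5, and Itgb5 over Itgb1 (ratios of TPM). The share of Itgal is 9.76 to 12.2% in forebrain and 3.82 to 5.37% in cerebellum.

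The ligand comparison asks how microglia kept with IL-34 differ from those kept with CSF-1. In cerebellum, 6 of 10 members were lower with IL-34 and 0 were higher, while 12.8% of all genes were called and 9.82% were called lower. They were Itgam, Itga6 and Itgav, at 0.735, 0.733 and 0.762 times the CSF-1 mean, and Itgb1, Itgb2 and Itga5, at 0.847, 0.869 and 0.874 times that mean. All libraries with IL-34 were below all with CSF-1 for 7 members, these and Itga4, beside 27.9% of all genes, and above them for 1, Itgb5, beside 8.21%. In forebrain 0 of 10 passed, beside 1.2% of all genes, and 3 (Itga5, Itga6 and Itgam) had an unadjusted p under 0.05, as did 14.2% of all genes, each member with a lower mean with IL-34. The members' median log2 fold change was -0.22 in cerebellum and -0.06 in forebrain, beside -0.10 and -0.04 for all genes. Averaged over the regions, 4 members were lower (Itgam, Itga6, Itga5 and Itgav) and 0 higher, against 13.4% of all genes called and 10.7% called lower.

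Itgam, the CD11b chain, was 392, 369 and 358 TPM in cerebellum with CSF-1 and 297, 256 and 270 TPM with IL-34. In forebrain it was 318, 351 and 360 TPM with CSF-1 and 330, 287 and 278 TPM with IL-34. The cerebellar groups did not overlap, and the forebrain groups did. The log2 fold change was -0.45 (SE 0.08, adjusted p = 0.00853) in cerebellum, -0.20 (SE 0.08, adjusted p = 0.262) in forebrain and -0.32 (SE 0.06, adjusted p = 0.00484) as the mean of both. Its cerebellar call was kept in each fit without 1 library.

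Itga6, the laminin receptor chain, was 379, 328 and 326 TPM in cerebellum with CSF-1 and 243, 239 and 275 TPM with IL-34, and 327, 340 and 352 TPM against 320, 271 and 275 TPM in forebrain. The ligand groups did not overlap in either region. The log2 fold change was -0.45 (SE 0.08, adjusted p = 0.0101) in cerebellum, -0.24 (SE 0.08, adjusted p = 0.206) in forebrain and -0.34 (SE 0.06, adjusted p = 0.00466) as the mean. The cerebellar call was lost without cerebellum IL-34 replicate 2 (adjusted p = 0.0525).

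Itgav, with the values given above, was lower with IL-34 in cerebellum by a log2 fold change of -0.39 (SE 0.08, adjusted p = 0.0159), against -0.09 (SE 0.08, adjusted p = 0.689) in forebrain. Without cerebellum CSF-1 replicate 1 or cerebellum IL-34 replicate 2 its adjusted p was 0.0655 and 0.0725. Its mean ligand difference was -0.24 (SE 0.06, adjusted p = 0.0221), and it was lost without cerebellum CSF-1 replicate 1, cerebellum IL-34 replicate 2, or replicate 2 or 3 of either forebrain group, at adjusted p = 0.05 to 0.0568. The main transcript of Itgav (ENSMUST00000028499) gave 386, 338 and 332 TPM in cerebellum with CSF-1 and 236, 214 and 249 TPM with IL-34. A short transcript of 688 nt was at 30.9, 21.3 and 2.37 TPM in cerebellum with IL-34 and listed at 0 in the 9 other libraries. With transcripts of 1000 nt or more alone, the log2 fold change was -0.47 (adjusted p = 0.0027).

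Itga5 showed the same size of difference in both regions. It was 260, 262 and 282 TPM with CSF-1 and 244, 233 and 228 TPM with IL-34 in forebrain, and 240, 254 and 244 TPM against 215, 213 and 219 TPM in cerebellum. No libraries overlapped between ligands in either region, and lower libraries without overlap in forebrain were found for 12.6% of all genes. The log2 fold change was -0.19 in forebrain (SE 0.05, adjusted p = 0.0884), -0.19 in cerebellum (SE 0.05, adjusted p = 0.0267) and -0.19 as the mean (SE 0.03, adjusted p = 0.00509), and the interaction was 0.00 (95% confidence interval -0.15 to 0.14).

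Of the beta chains, Itgb2 was 865, 854 and 794 TPM in cerebellum with CSF-1 and 748, 723 and 712 TPM with IL-34 (log2 fold change -0.20, SE 0.06, adjusted p = 0.0441), and 717, 768 and 805 TPM against 797, 721 and 721 TPM in forebrain (-0.03, SE 0.06, adjusted p = 0.869). Itgb1, with the values above, was lower with IL-34 in cerebellum (-0.24, SE 0.06, adjusted p = 0.0334), and its forebrain difference was -0.05 (SE 0.06, adjusted p = 0.795). The cerebellar calls of Itgb1 and Itga5 were lost without any one cerebellar library except IL-34 replicate 3, at adjusted p up to 0.117 and 0.0965. That of Itgb2 was lost in 8 of 12 fits, at adjusted p up to 0.142, namely without any one cerebellar library except CSF-1 replicate 3, and without forebrain CSF-1 replicate 2 or forebrain IL-34 replicate 2 or 3. Itgb5 was 409, 404 and 384 TPM in cerebellum with CSF-1 and 410, 441 and 445 TPM with IL-34, higher with IL-34 in every library but below the threshold of the test (0.11, SE 0.06, adjusted p = 0.221). In forebrain Itgb5 was 382, 431 and 385 TPM against 437, 405 and 396 TPM (0.05, SE 0.06, adjusted p = 0.808).

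**Figure D4:**
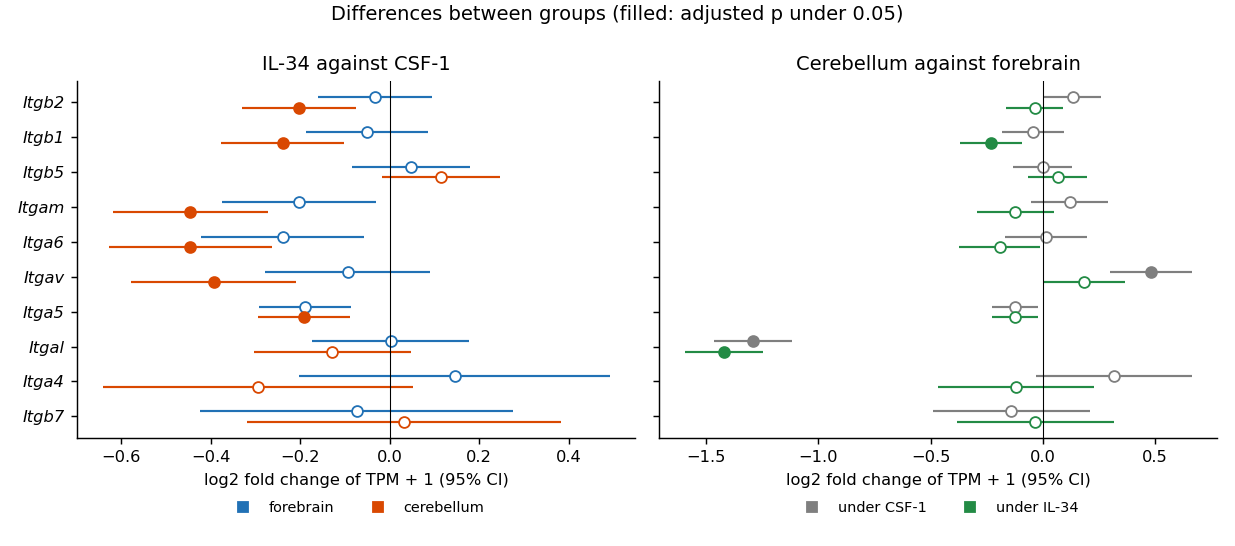
Log2 fold changes on the log2(TPM + 1) scale with 95% confidence intervals for the 10 genes: IL-34 against CSF-1 in each region (left) and cerebellum against forebrain under each ligand (right), with filled points where limma's adjusted p was under 0.05. Of 10 genes, 6 are filled in cerebellum and 0 in forebrain on the left, and Itgal lies far below the others on the right.

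The difference between the regions' ligand effects was itself tested, and 0 of 10 members passed, beside 0.145% of all genes. Itgav alone had an unadjusted p under 0.05 for this interaction, as did 12.1% of all genes (-0.30, SE 0.12, adjusted p = 0.363, limma). The interactions of Itgam (-0.24, adjusted p = 0.415) and Itga6 (-0.21, adjusted p = 0.493) had intervals that reached 0. The calls in cerebellum and their absence in forebrain therefore do not show that the ligands acted differently in the regions.

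The cerebellar ligand counts depended on the scaling. In that comparison, 373 genes were called higher and 1220 lower in TPM as deposited, and 693 higher and 505 lower after median-of-ratios scaling, which moved the median of all genes from -0.10 to 0.00. After that scaling Itgam (-0.33), Itga6 (-0.34) and Itgav (-0.28) were still called lower, Itgb1, Itgb2 and Itga5 were not, and Itgb5 was called higher (0.22, adjusted p = 0.0207). Removing each library's trend with transcript length called the same 4 genes in the same directions, with Itgb5 at 0.24 (adjusted p = 0.0108). Leaving out cerebellum IL-34 replicates 1 and 2 kept only 1 library in that group, so calls of that fit are not given. Its log2 fold changes in cerebellum were -0.47 for Itgam, -0.32 for Itga6 and -0.42 for Itgav. In the fit of all libraries they were -0.45, -0.45 and -0.39. With each library's length floor as a covariate, 0 of 10 passed, and 37 genes were called in all. The floor is the length under which the shortest 1 percent of a library's transcripts with 5 TPM or above lay. It was 503, 491 and 580 nt in cerebellum with IL-34 and 592 to 669 nt in the other libraries. The floors of this group were the lowest, so that fit separates the group from its length floor only in part. Over all alternative settings the smallest cerebellar differences were -0.29 for Itgam, -0.21 for Itga6 and -0.20 for Itgav. The part of the length floor in the lost calls was not tested.

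**Figure D5:**
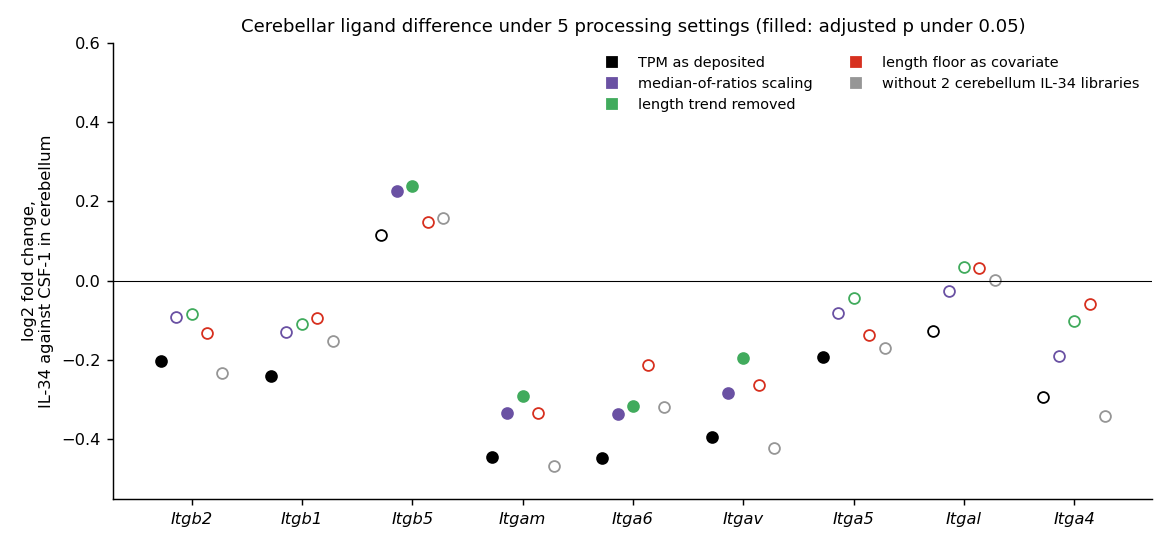
Log2 fold change of IL-34 against CSF-1 in cerebellum for 9 integrin genes (Itgb7 left out for its low level) under 5 processing settings, by colour, with filled points where limma's adjusted p was under 0.05. Itgam, Itga6 and Itgav stay below 0 under each setting shown and are filled in 3 of 5, and Itgb5 lies above 0 and is filled in 2. The setting without 2 cerebellum IL-34 libraries keeps 1 library in that group and is shown for effect size only.

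Itga4 and Itgb7 did not pass in any comparison. Itga4 was 9.76, 9.98 and 14.8 TPM in forebrain with CSF-1, 15.2, 11.2 and 11.8 TPM in forebrain with IL-34, 14.4, 13.9 and 14.8 TPM in cerebellum with CSF-1 and 13.3, 10.3 and 11.1 TPM in cerebellum with IL-34. Its libraries differed widely within the forebrain groups, and its intervals were correspondingly wide (-0.64 to 0.05 for the ligand in cerebellum). Itgb7 was 1.14 ± 0.145 TPM in forebrain with CSF-1, 1.03 ± 0.112 TPM in forebrain with IL-34, 0.957 ± 0.334 TPM in cerebellum with CSF-1 and 0.984 ± 0.114 TPM in cerebellum with IL-34 (SD, n = 3 each). Among its intervals for region or ligand differences, the widest reach was a log2 difference of -0.49, for cerebellum against forebrain under CSF-1. The interval of its interaction was -0.39 to 0.60.

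Several members were made of more than 1 transcript. The split of a gene's TPM between transcripts is an estimate of kallisto, the tool that assigned the reads, and is less certain where transcripts differ by few bases. For Itga6 the cytoplasmic tail is alternatively spliced into an A form and a B form, which end in different last coding exons. The transcript with the A tail gave 131 to 200 TPM or 49.9 to 55% of the gene in the 12 libraries, and the one with the B tail 0.711 to 9.28 TPM or 0.262 to 2.63%. The rest was mostly 1 transcript annotated as not coding, at 93.2 to 158 TPM. The A tail was 186 ± 12.7 TPM in cerebellum with CSF-1 and 136 ± 8.26 TPM with IL-34, and 175 ± 8.04 and 149 ± 12.8 TPM in forebrain (SD, n = 3 each), and the A form exceeded the B form in every library. The coding ends of both transcripts, from GENCODE M21 on GRCm38, are shown to set the tails side by side. Shared codons before the exon that differs are in lower case, and that exon is in capitals. It lies at chr2:71853534-71853641 for A and chr2:71855854-71856015 for B (plus strand, the last 3 bases being the stop codon). Both stretches of capitals begin with TGTGG, and the tails diverge after these similar first codons.
Itga6 A tail: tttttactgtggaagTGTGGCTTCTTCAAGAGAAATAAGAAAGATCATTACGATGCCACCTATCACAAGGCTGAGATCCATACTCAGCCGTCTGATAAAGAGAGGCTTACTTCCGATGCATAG
Itga6 B tail: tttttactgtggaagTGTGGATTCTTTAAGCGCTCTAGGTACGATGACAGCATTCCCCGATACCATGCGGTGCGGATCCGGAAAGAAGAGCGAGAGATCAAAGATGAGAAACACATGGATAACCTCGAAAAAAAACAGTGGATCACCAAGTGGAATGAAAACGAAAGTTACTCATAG

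The main transcripts of Itgam and of Itgal each come as a pair that differs by 1 codon at an exon boundary, and these are shown because they bear on how far the split can be trusted. The longer form of Itgam keeps a CAG codon (chr7:128101634-128101636) that the shorter form lacks, and the longer form of Itgal keeps a GTG codon (chr7:127317364-127317366), on the plus strand. The codon is in capitals.
Itgam longer form: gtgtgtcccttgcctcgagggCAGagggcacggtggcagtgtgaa
Itgam shorter form: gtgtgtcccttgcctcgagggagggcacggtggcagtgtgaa
Itgal longer form: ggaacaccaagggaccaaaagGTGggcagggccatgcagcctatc
Itgal shorter form: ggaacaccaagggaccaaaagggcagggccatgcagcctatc
Itgam was shared evenly and stably between its pair, at 40 to 49.3% for the longer form and 45.5 to 56% for the shorter form in the 12 libraries. For the less abundant Itgal the split swung between libraries of the same group, with the longer form at 19.5 to 65% and the shorter at 23.6 to 54.7%, while the sum of the gene stayed within 38.2 to 40.6 TPM in forebrain. The regional difference of Itgal was seen in both: the longer form was 12.8 to 25.4 TPM in forebrain and 3.21 to 9.72 TPM in cerebellum, and the shorter form was 9.88 to 19.2 TPM and 3.66 to 9.02 TPM.

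The other members except Itga4 were dominated by 1 coding transcript. It held 91.1 to 97.2% of Itgb5, 87.6 to 91.9% of Itgb2, 82.1 to 88.4% of Itgb1 and 74.8 to 94.3% of Itgav. Itga5 and Itgb7 had a single transcript that held all of the gene. The most abundant transcript annotated as a target of nonsense-mediated decay made up 7.97 to 12.2% of Itgb2 and 11.6 to 16.4% of Itgb1. The main coding form of Itga4 held 43.7 to 70.2% of Itga4, and most of the rest was in transcripts annotated as not coding.

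Promoters were read for the 7 members listed in the RefSeq promoter table of GRCm38.p6, as the 250 bases before the start site, and searched on both strands for GAGGAA, the core of sites bound by PU.1, the ETS-family factor of macrophages (TTCCTC on the other strand). Itgam and Itgav held 2 matches each, Itgb1 and Itga5 held 1 each, and Itgb5, Itgb7 and Itga4 held 0. Of 32851 promoters of this length, 23.3% held at least 1 match and 3.54% at least 2. In Itgam the matches begin 84 and 15 bases before the start, and in Itgav 218 and 7 bases before it. The sequences of this pair are shown with the matches in capitals (chr7:128062390-128062639 and chr2:83724147-83724396, plus strand). A match of 6 letters is a description of the sequence, and binding was not measured here.
Itgam promoter: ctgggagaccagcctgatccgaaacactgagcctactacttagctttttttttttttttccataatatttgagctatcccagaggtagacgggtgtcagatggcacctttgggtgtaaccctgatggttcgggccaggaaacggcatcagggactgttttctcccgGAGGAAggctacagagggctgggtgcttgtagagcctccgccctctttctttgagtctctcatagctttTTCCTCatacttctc
Itgav promoter: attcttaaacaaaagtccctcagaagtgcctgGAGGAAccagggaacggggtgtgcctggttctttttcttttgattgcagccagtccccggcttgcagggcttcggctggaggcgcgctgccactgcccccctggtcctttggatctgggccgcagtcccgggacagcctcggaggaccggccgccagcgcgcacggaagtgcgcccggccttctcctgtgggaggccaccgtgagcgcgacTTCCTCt

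Outside the 10 members, 17 other integrin chain genes were looked up, and 12 of them were too low to be tested. These were Itga1, Itga2, Itga2b, Itga3, Itga10, Itga11, Itgad, Itgae, Itgb2l, Itgb4, Itgb6 and Itgb8, none above 1.47 TPM in a library. Itga9, a beta1 partner that binds tenascin-C, was the only abundant one, at 22.4 ± 2.93 and 19.7 ± 1.67 TPM in forebrain and 26.9 ± 3.5 and 24.2 ± 1.1 TPM in cerebellum with CSF-1 and IL-34 (SD, n = 3 each). It was higher in cerebellum for the mean of both ligands (log2 fold change 0.27, SE 0.08, adjusted p = 0.0368). The call was kept in 4 of 12 fits without 1 library and in 7 of 12 alternative settings, with log2 fold changes down to 0.13. Itga8 ranged from 0.227 to 2.35 TPM and was lower with IL-34 (-0.60, adjusted p = 0.0092) and in cerebellum (-0.56, adjusted p = 0.00751) for the mean differences. Itgb3, another beta partner of Itgav, was 0.631 to 2.04 TPM and lower with IL-34 for the mean (-0.43, adjusted p = 0.0361). Itgax, the CD11c chain, was 1.1 to 2.71 TPM, and Itga7 0.745 to 1.36 TPM, and neither passed.

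Adaptors and kinases that act at integrin tails were followed as a list of 47 names, of which 43 gene entries were tested. In cerebellum 1 was higher and 11 were lower with IL-34 (median -0.08, beside -0.10 for all genes), in forebrain 0 and 1, and for the mean 1 and 15. Of all genes 12.8, 1.2 and 13.4% were called in these comparisons. Apbb1ip encodes RIAM, which links the GTPase Rap1 to talin. It was 84.4 ± 7.13 TPM with CSF-1 and 61.8 ± 4.3 TPM with IL-34 in forebrain, and 89 ± 4.52 and 61.4 ± 2.19 TPM in cerebellum (SD, n = 3 each). The log2 fold change was -0.44 in forebrain (SE 0.07, adjusted p = 0.0171), -0.53 in cerebellum (SE 0.07, adjusted p = 0.003) and -0.48 as the mean (SE 0.05, adjusted p = 0.000359). The forebrain call was kept in 8 of 12 fits without 1 library, and the mean call in each of the 12 alternative settings and the 12 fits without 1 library. Actn1, the actin crosslinker alpha-actinin, and Ptk2, focal adhesion kinase, were also lower with IL-34 for the mean (-0.33 and -0.35, adjusted p = 0.00165 and 0.00434). The list's cerebellar count went to 3 higher and 6 lower under median-of-ratios scaling.

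Between regions, 7 of the 43 entries were higher and 7 lower in cerebellum for the mean of both ligands, beside 9.58 and 10.6% of all genes. Ptk2 was 17.1 ± 1.33 and 14.5 ± 0.932 TPM in forebrain and 11.8 ± 0.76 and 8.18 ± 0.256 TPM in cerebellum with CSF-1 and IL-34 (log2 fold change -0.63, SE 0.06, adjusted p = 4.3e-05). Nedd9, a docking protein of the Cas family, was 5.74 ± 0.489 and 5.66 ± 0.601 TPM in forebrain and 2.53 ± 0.31 and 3.02 ± 0.149 TPM in cerebellum (-0.83, SE 0.08, adjusted p = 5.22e-05). Cytip, which binds cytohesin-1 and restrains adhesion through LFA-1, went the other way, from 16.3 ± 2.48 and 19.5 ± 2.75 TPM in forebrain to 32 ± 5.23 and 38.8 ± 5.11 TPM in cerebellum (0.94, SE 0.11, adjusted p = 0.000128). The mean calls of these 3 genes were kept in each of the 12 alternative settings and the 12 fits without 1 library. Under IL-34, Tns1, a tensin that ties integrin tails to actin, was also higher in cerebellum (1.55, SE 0.23, adjusted p = 0.00202), a call lost in 2 of 13 alternative settings (adjusted p up to 0.181, log2 fold change down to 0.62).

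Integrin ligands were followed as a list of 40 genes, of which 21 were tested. For the mean regional difference 5 were higher and 6 lower in cerebellum, beside 9.58 and 10.6% of all genes, with a median of 0.00 beside 0.01 for all genes. Spp1 encodes osteopontin, an RGD ligand of Itgav integrins, and was among the most abundant transcripts, at 19300 ± 1570 and 16900 ± 168 TPM in forebrain and 26800 ± 488 and 24400 ± 2140 TPM in cerebellum with CSF-1 and IL-34 (log2 fold change 0.50, SE 0.05, adjusted p = 5.89e-05). The call held in 11 of 12 alternative settings, with 0.07 in the other. Thbs1, thrombospondin-1, was higher in cerebellum (0.72, SE 0.07, adjusted p = 6.18e-05), at 40.5 ± 3.81 and 50.9 ± 2.09 TPM against 23.1 ± 2.74 and 32.3 ± 2.89 TPM. Cyr61, a matricellular ligand, was lower (-1.23, SE 0.09, adjusted p = 5.8e-06), at 9.34 ± 1.61 and 6.63 ± 0.376 TPM against 19.4 ± 2.77 and 20.3 ± 1.33 TPM. For the mean ligand difference 2 of 21 were higher with IL-34 and 2 lower, beside 13.4% of all genes called. Mfge8, a bridge between dying cells and Itgav integrins, was higher with IL-34 (0.40, SE 0.08, adjusted p = 0.00865), at 43.1 ± 3.84 against 33.1 ± 2.83 TPM in forebrain and 27.4 ± 3.7 against 20.1 ± 1.76 TPM in cerebellum. Thbs1 was higher as well (0.40, SE 0.07, adjusted p = 0.00603), and Tgfb1, whose latent form Itgav integrins bind, was lower (-0.22, SE 0.05, adjusted p = 0.022), a call that 7 of 12 fits without 1 library kept. In cerebellum alone 1 ligand gene was higher (Mfge8) and 1 lower (Cyr61), beside 12.8% of all genes called. Of 12 fits without 1 library, 7 kept the cerebellar call of Mfge8 and 2 that of Cyr61. In forebrain 0 passed, beside 1.2% of all genes, with 5 at an unadjusted p under 0.05, beside 14.2%.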

How the data were processed

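RNA was measured in 12 libraries, 3 for each combination of region and ligand in the labels. The cDNA kit was SMART-Seq v4, per the labels' protocols. The authors deposited TPM per Ensembl transcript, made with kallisto 0.43.0 and GRCm38, per the submitters' processing notes. For the annotation release, filters and bias corrections, nothing is given in the sources used here. TPM keeps no depth, so precision rests on the spread between libraries, and no pair among 66 pairs of libraries held identical values.

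TPM was summed per gene identifier. A readthrough locus that the table also calls Itgam was kept apart. Positions, lengths and coding sequences came from GENCODE M21 (GRCm38) and promoters from RefSeq (GRCm38.p6). Genes with 1 TPM or more in 3 or more libraries were tested, 12419 in all. The two-sided test was limma 3.58.1 (R 4.3.3) on values of log2(TPM + 1), with 4 group means, a variance trend and 8 residual degrees of freedom before moderation. P-values were adjusted over all tested genes by the Benjamini-Hochberg method, and calls had an adjusted p under 0.05. The code was tested on simulated data. On this scale fold changes of low genes are understated.

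The members and gene lists were chosen with earlier results of these data known. All members and other integrin chains are named. From the lists of adaptors and of ligands, up to 3 genes per comparison with the smallest p are named, among those called and at 5 TPM or more on average in the higher group. Alternatives covered the pseudocount (0.1 and 5), filter, scaling, variance trend, library weights, transcript length, libraries in the fit and replicate number. Some marker genes are not reported here.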

Additional observations from a re-analysis of the deposited data

How the results depend on the processing

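The regional calls of Itgal, and of Itgav under CSF-1 and for the mean, kept direction and threshold in each alternative and each fit without 1 library. Members called with IL-34 against CSF-1 in cerebellum went from 6 to 3 with no variance trend and 3 with only the groups compared. They went to 0 with the length floor as covariate, which can be told apart from that group only in part, and to 1 to 6 without 1 library each. Counts are not given for the fit without the 2 cerebellum IL-34 libraries richest in short transcripts (chosen after seeing the data). It kept only 1 library in that group. In forebrain the count went from 0 to 1 with array weights, with transcripts of 1000 nt or more, and with the length floor as covariate, and was 0 without each library. For the mean of both regions the count was 4, and 3 to 6 without 1 library each. Cerebellum against forebrain under IL-34 went from 2 to 1 with no filter, quantile normalization, no variance trend, only the groups compared or the length floor as covariate. It went to 4 with the length trend removed, and was 1 to 2 without 1 library each. For the mean of both ligands it went from 4 to 2 with quantile normalization, no variance trend or the length floor as covariate, and was 2 to 4 without 1 library each. With the replicate number as a block, 3 members were called for the ligand in cerebellum and 2 for the regional mean. The numbers were not taken to pair the cultures: of 18 same-number pairs 5 had a correlation of deviations over 0.1, and 2 of 12 libraries correlated best with their own number. The cause of the other shifts was not tested. No member reversed a called direction. The depth behind these TPM values is unknown.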

Other observations

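The genes whose log2(TPM + 1) followed each member most closely over the 12 libraries, among 12419 tested, were taken as a description. The libraries share regions, ligands and short-RNA content, so these correlations carry no test. For Itgal they were F13a1, the A subunit of coagulation factor XIII (Pearson r = 0.993), and Rab32, a GTPase of lysosome-related organelles (0.993). For Itgam they were Inpp4b (0.982), a phosphoinositide phosphatase, and Nolc1 (0.977), for Itga6 Spire1 (0.989) and the tropomyosin gene Tpm3 (0.986), and for Itgav Srgap2 (0.983) and the homeobox gene Cux1 (0.978). For Itgb1 they were Sgk3 (0.988) and Calu (0.979), for Itgb2 the Argonaute gene Ago2 (0.977) and the tyrosine kinase gene Fes (0.972), and for Itga5 Rpl4 (0.979) and Pofut2 (0.973).

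The readthrough locus that shares the symbol Itgam was at 0.359 to 1.39 TPM. Adding it to Itgam left each of the 7 comparisons of Itgam on the same side of the threshold.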
